A study of Gossypium hirsutum with 2 samples.

Results

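Flavonoids and lignin are both built from phenylpropanoid precursors, which plants make from phenylalanine. Chalcone synthase (CHS) opens the flavonoid branch, and dihydroflavonol 4-reductase (DFR) acts late in it, towards anthocyanins and condensed tannins. In the lignin branch caffeoyl-CoA O-methyltransferase methylates an activated precursor, and cinnamoyl-CoA reductase (CCR) makes the aldehydes from which lignin monomers are formed. In leaves, flavonoids are known as pigments and sunscreens, and lignin stiffens the walls of water-conducting cells.

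The genes described here are those whose alias in the gene table was CHS2, CHS3, DFR, CCR1 or CCoAMOT2. They are 5 of the 520 genes that the platform annotation gives as the only gene of at least 1 probe set. They are represented by 8 of 697 such probe sets, 6 in the flavonoid branch and 2 in the lignin branch. Aliases were read as the gene table spells them, so CCoAMOT2 is taken as a caffeoyl-CoA O-methyltransferase.

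Leaves came from field-grown Upland cotton (Gossypium hirsutum) of the genotype Acala 1517-99, which the series title calls drought tolerant. The drought-stressed plants had received no furrow irrigation and were sampled 9 days after water was withheld, and the well-watered plants had been irrigated. Both groups share genotype, field and leaf position, namely the third topmost leaf, and the labels give an age of 9 weeks for both, although the planting and harvest dates in the labels lie closer together than that. The labels describe 8 plants per replicate from 3 plots, but each group is 1 array here, and the labels leave unsaid whether that array holds RNA of several plots. The spread between replicates is therefore unknown: every difference describes these 2 arrays and has no test.

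Levels are MAS5 signals, which Affymetrix software computes on a linear scale from the probes of a set, and a log2 difference is drought minus well-watered. Probe sets with a mean log2 signal at or above the plant median, equal to a signal of 72.3, count as measurable and the others as dim. The median plant signal was 78.3 on the drought array and 75.6 on the well-watered array. The 51 dimmer reporter-gene controls, whose targets are not expected in leaf RNA, had a 95th percentile of 144 on the drought array and 75.7 on the well-watered array. The ratio of 3-prime to 5-prime control signal for actin was 4.09 on the drought array and 14.1 on the well-watered array. For ubq11 it was 10.2 on the drought array and 5.80 on the well-watered array, and for ss1 1.30 and 1.83. The controls thus differed between the arrays in both directions. RCA1, the rubisco activase gene used as a leaf marker, had 20148 on the drought array and 16617 on the well-watered array, more than 99.98% and 99.96% of plant probe sets. The seed-fibre gene E6 gave 92.3 in drought leaves and 216 in well-watered leaves, more than 54.6% and 72.6% of plant probe sets. Its well-watered signal was over the reporter 95th percentile of that array and its drought signal was under that of its own, with a log2 difference of -1.23. The part of RNA quality or of cell makeup in the enzyme differences was not tested, and fewer cells of a type cannot be told apart from less RNA per cell.

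Of the 5 enzyme genes, DFR and CCR1 had lower signals in drought leaves, at 71.5% and 66.9% of the well-watered signal, CHS2 stood at 81.3%, and CHS3 and CCoAMOT2 were nearly level. The 5 measurable probe sets, 1 for each gene, all had log2 differences below 0, as did 50.4% of the 11989 measurable plant probe sets. None of the 5 reached 2-fold, against 2.56% of measurable probe sets at least 2-fold lower and 1.82% at least 2-fold higher. None of the 8 enzyme probe sets was among the 110 in the authors' deposited list of differentially expressed genes, whose rule of choice is not stated and which holds 0.456% of the probe sets of the array.

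Chalcone synthase condenses the precursors into the first flavonoid, and 2 of its genes were measurable. CHS3 (LOC107912380) measured 761 in drought leaves and 788 in well-watered leaves, a log2 difference of -0.05, and the drought signal was 96.6% of the well-watered one. CHS2 (LOC107927759) measured 174 in drought leaves and 213 in well-watered leaves on its measurable probe set, a log2 difference of -0.30, or 81.3% of the well-watered signal. The CHS2 drought signal was 1.21 times the reporter 95th percentile of its array, and the well-watered signal was 2.82 times that of its own array. In the authors' deposited list, signals of up to 235 on the drought array and 90.2 on the well-watered array carry the call absent. Signals from 56.2 upwards on the drought array and from 43.6 upwards on the well-watered array carry the call present, so the calls overlap in signal. The drought signals of CHS2 and CCR1 lie within that overlap, and no call can be read for them from the list.

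DFR (LOC107957957) measured 1232 in drought leaves and 1722 in well-watered leaves. The log2 difference was -0.48, and the drought signal was 71.5% of the well-watered one. Both signals were well clear of the reporter controls, at 8.57 times their 95th percentile on the drought array and 22.8 times on the well-watered array. Among the 3997 probe sets of the brightest of 3 equal classes of measurable signal, where the middle 90% of log2 differences ran from -0.49 to 0.45, DFR lay above 5.13%. Median centring and spike-in scaling cannot alter that place, since they shift all probe sets alike. It was 4.70% with quantile normalization, 4.53% with intensity-dependent centring and 4.85% with the pseudocount, so DFR lay close to the 5th percentile of bright probe sets, just above or just below it by the scaling. The median over CHS2, CHS3 and DFR was -0.30, against -0.01 for all measurable probe sets. This median is the value of CHS2 alone, whose drought signal was only 1.21 times the reporter 95th percentile, with CHS3 at -0.05 and DFR at -0.48 on either side.

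In the lignin branch the pair of genes differed from each other more than the branches did. CCR1 (LOC107951749) measured 115 in drought leaves and 172 in well-watered leaves, a log2 difference of -0.58 and the largest of the 5 in size. Its drought signal was under the reporter 95th percentile of that array (0.80 times), whereas the well-watered signal was 2.27 times that limit on its array, so the size of the CCR1 difference is imprecise. CCR1 lay in the dimmest of these classes, where the middle 90% ran from -1.06 to 0.94, and it stood above 16.0% of probe sets there. The larger difference of CCR1 was thus less far out in its signal class than the smaller one of DFR.

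CCoAMOT2 (LOC107945134) measured 444 in drought leaves and 450 in well-watered leaves. The log2 difference of -0.02 lay above 44.9% of the brightest class, and its sign turned under quantile normalization (0.013) and intensity-dependent centring (0.013). The median over both lignin genes was -0.30, the same to this precision as in the flavonoid branch, but it is the midpoint of only 2 probe sets, at -0.58 and -0.02.

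**Figure D1:**
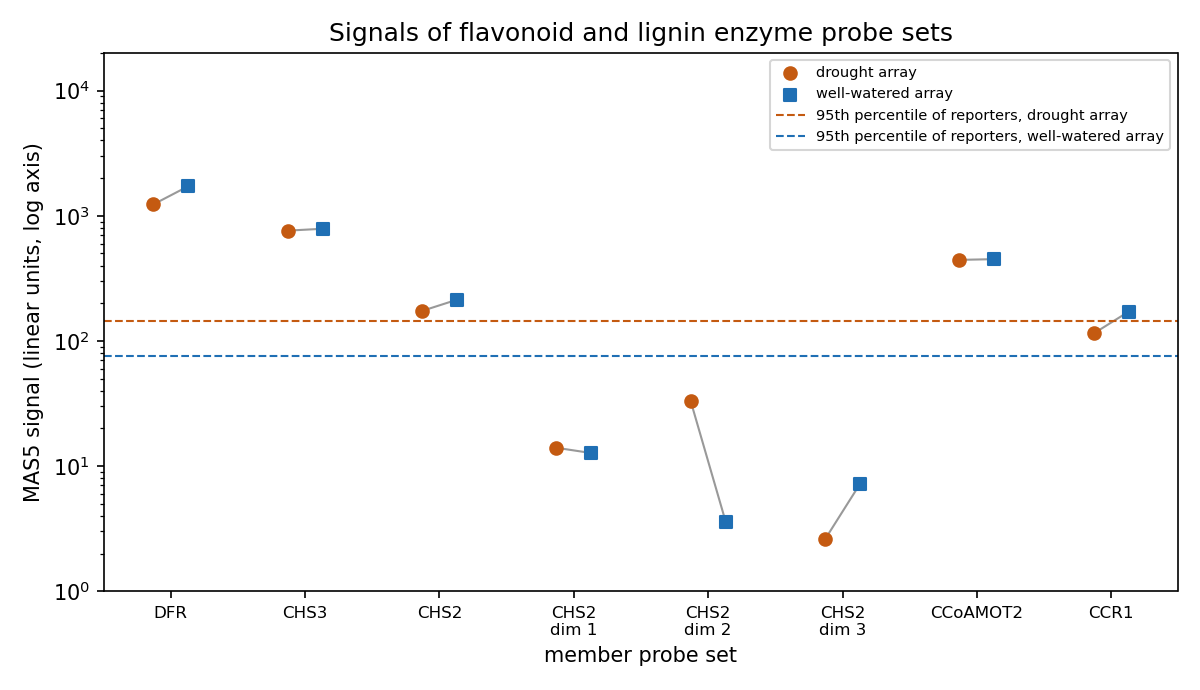
MAS5 signals (log axis) of the 8 enzyme probe sets on the drought array (circles) and the well-watered array (squares), with the reporter 95th percentile of each array as a dashed line; the 3 points marked dim are the other CHS2 probe sets in falling order of mean signal. DFR is highest on both arrays, CCR1 lies between the dashed lines on the drought array, and the dim CHS2 probe sets lie under both lines.

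The order of signals was the same on both arrays: DFR, CHS3, CCoAMOT2, CHS2 and CCR1. DFR stood above 93.6% of plant probe sets on the drought array and 95.3% on the well-watered array. CHS3 stood above 90.1% and CCoAMOT2 above 84.3% on the drought array, with 90.3% and 84.1% on the well-watered array. CHS2 was above 69.2% on the drought array and 72.4% on the well-watered array, and CCR1 above 60.4% on the drought array and 68.3% on the well-watered array. The order is one of probe-set signals, which also depend on probe affinity, and is not an order of transcript amounts. Without replicates it cannot be said which neighbours differ beyond their spread. The closest neighbours were CHS2 and CCR1, at 174 and 115 on the drought array and 213 and 172 on the well-watered array.

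**Figure D2:**
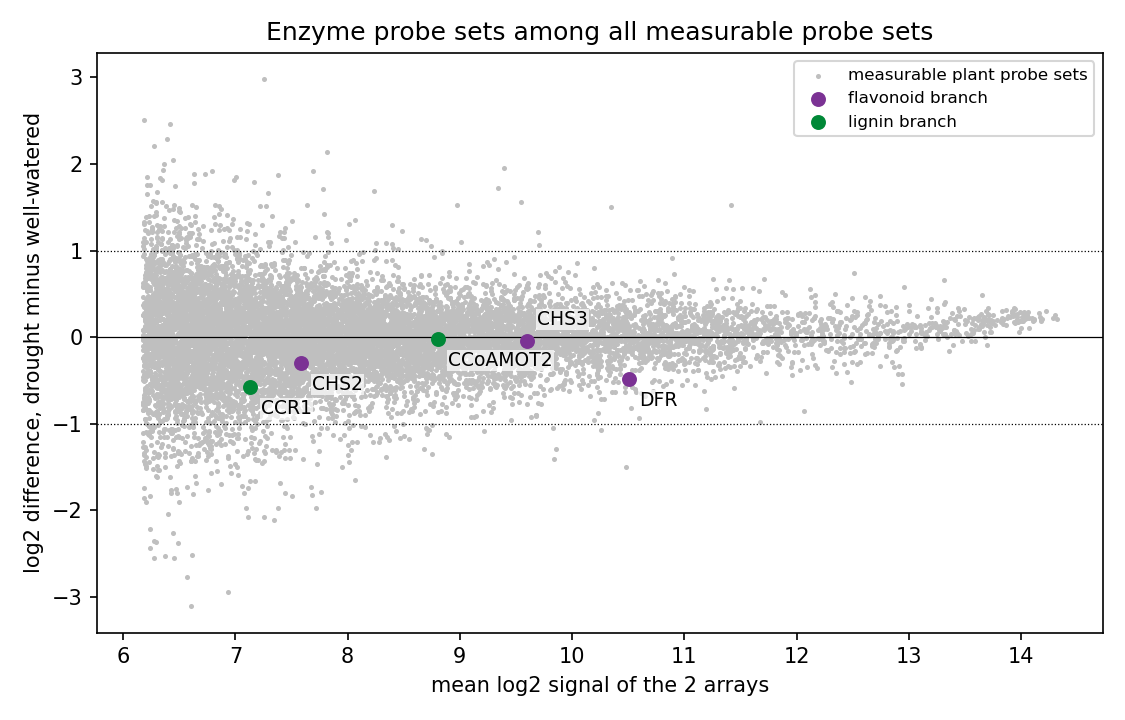
Log2 difference (drought minus well-watered) against the mean log2 signal of the 2 arrays for 11989 measurable plant probe sets (grey), with the 5 measurable enzyme probe sets coloured by branch and dotted lines at 2-fold. All 5 lie within 2-fold; DFR sits low in the narrow cloud at its signal, and CCR1 inside the wide cloud at low signal.

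Differences between genes of 1 array pair do not depend on a factor common to a whole array, so they were also compared within the pathway. The log2 difference of DFR minus that of CHS3 was -0.43. That of CCR1 minus that of CCoAMOT2 was -0.56. In the flavonoid branch CHS2 lay between the others, with -0.25 for CHS2 minus CHS3 and -0.19 for DFR minus CHS2. The values that involve CCR1 rest on a drought signal under the reporter limit and are imprecise. As a measure of how far probe sets of the same gene can part, the median absolute gap in log2 difference was 0.25 over 60 genes with at least 2 measurable probe sets, and its 90th percentile was 1.23. The gaps of DFR from CHS3 and of CCR1 from CCoAMOT2 lay between these values, while those of CHS2 from CHS3 and of DFR from CHS2 were no larger than the median gap. The 60 genes were not matched in signal to the enzymes, and log2 differences spread more widely at low signal, so this is only a rough measure.

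**Figure D3:**
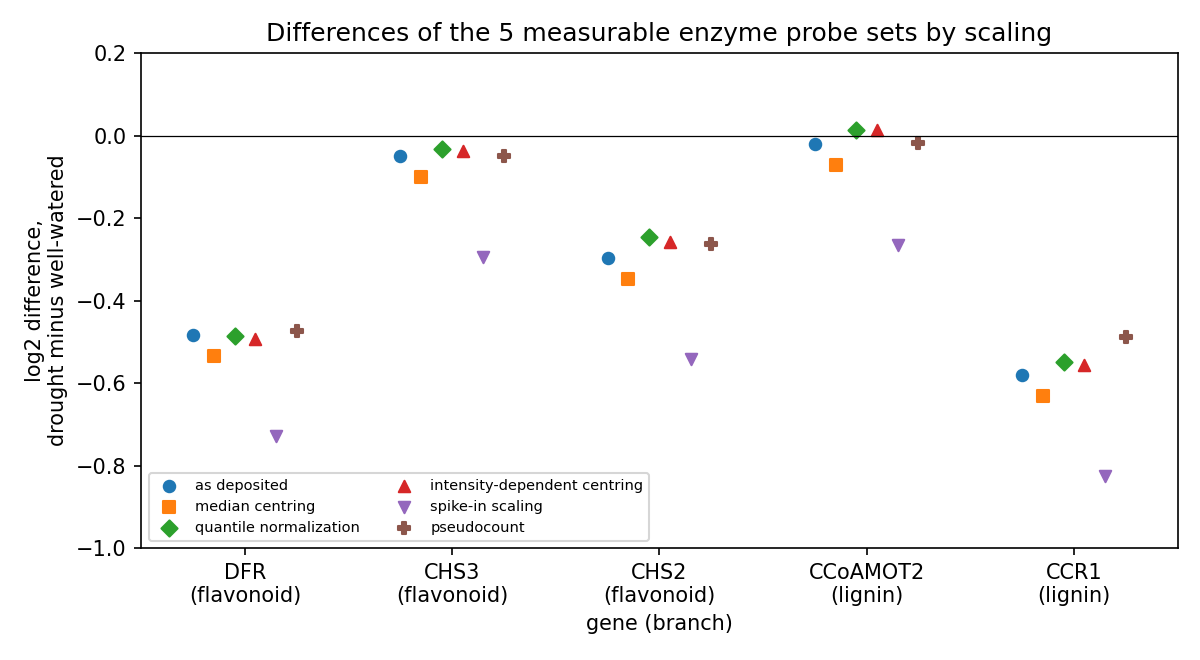
Log2 difference (drought minus well-watered) of the 5 measurable enzyme probe sets with the signals as deposited and under 5 other scalings. DFR runs from -0.73 to -0.47 and CCR1 from -0.82 to -0.49, while CHS3 and CCoAMOT2 lie near 0 except against the spike-in controls.

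Against the 27 hybridisation spike-in probe sets every log2 difference is lower by 0.24, and the median of all measurable probe sets moves to -0.25. On that scale DFR gave -0.73, CCR1 -0.82, CHS2 -0.54, CHS3 -0.29 and CCoAMOT2 -0.26, and 75.7% of measurable probe sets were below 0. Since the shift is common to all probe sets, the place of each enzyme relative to that median is the same as with the signals as deposited.

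CHS2 had 3 further probe sets, all dim and all under the reporter 95th percentile of their array. The brightest of them gave 14.0 in drought leaves and 12.7 in well-watered leaves, the next 33.0 in drought leaves and 3.60 in well-watered leaves, and the dimmest 2.60 in drought leaves and 7.20 in well-watered leaves. They pointed in both directions, and at such signals no fold is read from them. Of the 8 enzyme probe sets, the 6 whose ID carries the orientation letter S include all 5 measurable ones, and both with the letter A were dim. Over the whole array 60.4% of S probe sets and 37.0% of A probe sets were measurable. Among probe sets with a gene alias, as the enzymes have, it was 64.6% of S and 50% of A. The measurable probe sets of DFR, CHS2 and CCR1 end in _s_at, which by the array's naming marks probes shared by several transcripts, so related or homoeologous copies may contribute to these 3 signals. That of CHS3 ends in _at and that of CCoAMOT2 in _a_at. The 3 probe sets ending in _s_at had the larger log2 differences in size, at -0.48 for DFR, -0.30 for CHS2 and -0.58 for CCR1. CHS3 had -0.05 and CCoAMOT2 -0.02. Whether the ending goes with the size of the difference was not tested.

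A wider search covered 26 names of enzymes of the pathway, from phenylalanine ammonia-lyase at the entry to laccase in lignin polymerisation. It matched 28 genes of the gene table but only 7 with a probe set of their own, on 10 probe sets, and 3 further probe sets shared by several genes were left unnamed. Entry enzymes had no single-gene match, so the steps before chalcone synthase are not analysed here. Besides the enzymes above it found CHS6, a further chalcone synthase gene, which was dim at 51.1 in drought leaves and 46.8 in well-watered leaves. It also caught Chia7, whose alias begins like that of chalcone isomerase (CHI) but which the table does not describe, with 6180 in drought leaves and 5342 in well-watered leaves (log2 difference 0.21). Without Chia7 the measurable matches are the 5 enzyme probe sets already described. With it, 5 of 6 were lower in drought leaves, where 50.4% of all measurable probe sets were, and the median was -0.17.

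The brightest probe sets of 245 other genes with an alias were searched, and the gene nearest to each enzyme gene by Euclidean distance in log2 signal over the 2 arrays was found. For DFR it was CPR2, with 1189 in drought leaves and 1600 in well-watered leaves (distance 0.12). For CCR1 it was PK1, with 115 in drought leaves and 170 in well-watered leaves (distance 0.02). The nearest to CHS3 was CAP (distance 0.08), to CCoAMOT2 the manganese superoxide dismutase gene MnSOD (0.08), and to CHS2 cva69.24 (0.12). With only 2 arrays such nearness says that level and difference are alike, and nothing more.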

How the data were processed

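The authors deposited linear MAS5 signal intensity values for 24132 probe sets on 2 arrays, for which the submitters' processing notes name GCOS and MAS5 without a version. With 2% trimmed from each tail, the mean signal was 250.09 on either array, so they share a scale. The authors' deposited list of 110 probe sets gives signal intensity and, per the file headers, a detection p-value of each probe set on each array, which is no test between arrays. It was used for membership and for the signals it calls absent.

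Control probe sets (155) were left out and log2 signals were compared without a pseudocount, in Python 3.11.15 with numpy 2.4.6, pandas 2.3.3, scipy 1.17.1 and statsmodels 0.14.6. No replicates exist, so no test was run and no depth or interval can be given; the number of arrays limits the precision. Gene names came from the platform annotation (697 probe sets with 1 gene, 46 with several, 23234 with none) matched on gene identifier to the RefSeq genes of Gossypium_hirsutum_v2.1, which held those of all 743 annotated probe sets. Its coordinates were not used. Named were all enzyme probe sets, measurable matches of the wider list and the nearest gene to each enzyme gene; CHS6, which is dim, was named after its values were seen. The genes and lists were chosen with earlier results of these data known. Alternatives were median, quantile and intensity-dependent centring (span 0.3), spike-in scaling, a pseudocount of 26.4, other filters and a 1.5-fold threshold. The scalings were tested on simulated data with 200 changed probe sets, whose changes were larger than those of the measurable enzyme probe sets. The simulated noise was alike at all signals, whereas the measured log2 differences spread more widely at low signal. No criterion was set there for the pseudocount. The percentile places, medians, gaps and nearest genes were not tested in this way.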

Additional observations from a re-analysis of the deposited data

How the results depend on the processing

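A value was taken to have moved when it changed by more than 0.1 on the log2 scale, since there is no replicate spread. The sign of DFR, CCR1, CHS2 (measurable probe set) and CHS3 was the same under median, quantile and intensity-dependent centring, spike-in scaling and the pseudocount. CCoAMOT2 turned to 0.013 under both quantile normalization and intensity-dependent centring, which left 4 of 5 enzymes lower. Of all measurable probe sets, 49.3% were lower with quantile normalization and 49.8% with intensity-dependent centring. The brightest of the dim CHS2 probe sets was 0.14 as deposited and -0.10 against the spike-ins. The flavonoid median of -0.30 became -0.54 against the spike-ins, -0.17 with dim probe sets kept and -0.050, CHS3 alone, without probe sets ending in _s_at or _x_at. The lignin median of -0.30 became -0.54 against the spike-ins and -0.020, CCoAMOT2 alone, either without those endings or when the signal minimum was raised to the 75th percentile. The wider list's median of -0.17, which counts the undescribed Chia7, became -0.42 against the spike-ins and -0.035 both with no minimum and with the raised one. The raised minimum kept only DFR, CHS3, CCoAMOT2 and Chia7, the first 3 of them lower in drought leaves. With no minimum 6 of 10 were lower, and at the usual one 5 of 6, where 50.4% of all measurable probe sets were. The share of all probe sets that were lower is not given for the other 2 minimums. Across the array, 218 probe sets at least 2-fold higher and 307 lower became 103 and 624 against the spike-ins (85.8% lower, against 58.5%), 110 and 178 with the pseudocount, 3004 and 2838 with no minimum, 24 and 43 with the 75th percentile, 106 and 129 without the endings, and 878 and 1086 at 1.5-fold. The order of the measurable enzyme signals was the same on both arrays, which fixes the order by mean signal as well, so that is no further check. No paired analysis was possible because each group has 1 array.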
